A study of Mus musculus with 8 samples.

Results

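DL-Foxp2 neurons are the deep-layer excitatory neurons that the annotation of the prefrontal cortex (PFC) names after *Foxp2*, a forkhead transcription factor. Members were the cells that the deposited table of excitatory neurons assigns to DL-Foxp2, matched by library and barcode to the raw matrices. They numbered 743 of 2775 excitatory neurons and of 8997 annotated PFC cells. The other excitatory neurons fell into the deep-layer subtypes DL-Etv1 with 383 cells, DL-Nnat with 463, DL-Pou3f1 with 62 and DL-Tshz2 with 304, and the superficial-layer subtypes SL-Cux2 with 626 and SL-Myh7 with 194.

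Droplet single-cell RNA sequencing was performed on 2 wild-type (WT) and 2 *Setd1a*+/- libraries of the PFC, each made from the pooled tissue of 2 male C57BL/6N mice. *Setd1a*+/- mice carry 1 copy of *Setd1a*, which encodes an H3K4 methyltransferase, with an 8-bp frameshift mutation in exon 15 made by CRISPR-Cas9, and WT mice were their littermates. The line came from 1 chosen mutation made in fertilized eggs of B6D2F1 mice, and was backcrossed to C57BL/6N. Every cell type of the animal carries the mutation, and no mouse received a treatment. The labels give an age of 8 to 10 weeks and the methods give an older one, so age was not used. Each library pools animals, so the spread between single mice cannot be seen, and each replicate number holds 1 library of each genotype.

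Layer 6 of the cortex holds corticothalamic pyramidal neurons, which send glutamatergic axons back to the thalamus and collaterals to layer 4, and so adjust the gain of the input that the cortex receives. They are set up by transcription factors such as TBR1, FOG2 (encoded by *Zfpm2*), TLE4 and FOXP2, and are told from layer 5 neurons, which project to the brainstem and spinal cord or to the other hemisphere, and from the thin layer 6b below them. *Rprm* encodes Reprimo, a cell cycle inhibitor, *Syt6* a synaptotagmin, and *Hs3st4* an enzyme that sulfates heparan sulfate chains.

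The 4 markers given for these cells were high in all 4 libraries. Levels are given as CPM, the count of a gene in unique molecular identifiers (UMIs) scaled to the UMI total of the cells summed in that library. *Foxp2* was 246 and 257 CPM in WT replicates 1 and 2, and 251 and 347 CPM in *Setd1a*+/- replicates 1 and 2. Over the other 6 excitatory subtypes together it was 4.15 to 13.8 CPM. *Rprm* was 2060, 1960, 2410 and 1840 CPM in the same order, against 83.9 to 183 CPM. *Syt6* was 72.9, 112, 46.1 and 128 CPM, against 0.293 to 3.22 CPM. *Hs3st4* was 202, 201, 209 and 195 CPM, against 11.5 to 31.0 CPM. Taken as 1 group, the other subtypes in no library reached the lowest DL-Foxp2 library for any of the 4 genes. The clusters were made from these same cells and genes, so all levels set against other subtypes are descriptions and carry no test.

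**Figure D1:**
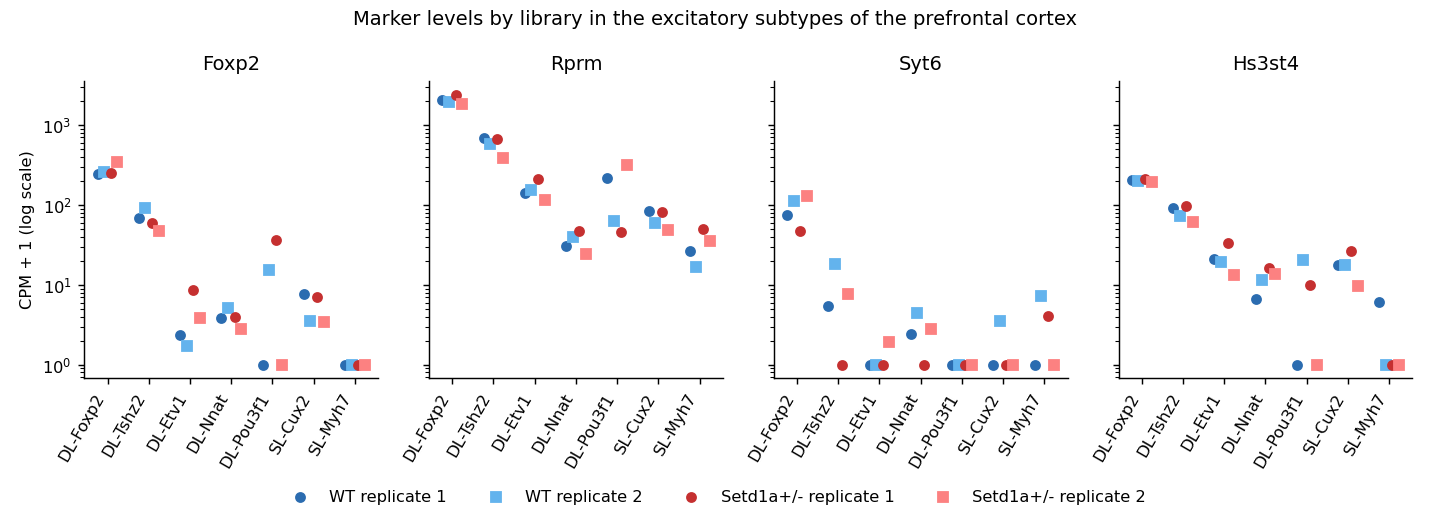
The level of each marker, in CPM plus 1 on a log axis, in the 7 excitatory subtypes. Each point is 1 library, blue for WT and red for *Setd1a*+/-, with circles for replicate 1 and squares for replicate 2. DL-Foxp2 is highest for every marker and DL-Tshz2 is next for *Foxp2*, where it lies at 46.3 to 91.2 CPM.

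DL-Tshz2 came nearest to DL-Foxp2 in these markers. Pooled over libraries, DL-Tshz2 neurons had 68.4 CPM of *Foxp2*, 620 CPM of *Rprm*, 6.48 CPM of *Syt6* and 83.5 CPM of *Hs3st4*. *Tle4*, a corepressor used as a layer 6 marker, did not separate these subtypes from each other, with 235 to 376 CPM over the libraries in DL-Foxp2 and 233 to 469 CPM in DL-Tshz2, but was at most 29.0 CPM in every library of the other 5. Outside the excitatory neurons, oligodendrocyte progenitors carried *Rprm* at 302 to 513 CPM, but *Foxp2* at 6.52 to 16.5 CPM. Droplets with at most 50 UMIs, which hold free RNA, had *Rprm* at 183 to 392 CPM and *Foxp2* at 8.72 to 36.7 CPM. In every library of the glial, endothelial and inhibitory groups *Foxp2* was at most 25.5 CPM.

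Of the list of 17 layer 6 corticothalamic markers, all 17 were higher in DL-Foxp2 than in the other excitatory neurons in each of the 4 libraries, and 15 by a log2 ratio of at least 1 in each. The background was 20.9% of the 5981 genes with at least 100 UMIs for higher in all libraries and 1.61% for a log2 ratio of at least 1. The list contains the 4 genes the cells were labelled by, and 5 CPM were added on both sides of each ratio. The other excitatory neurons were pooled for these ratios, and for some members a single subtype reached or passed DL-Foxp2. Besides *Tle4*, *Nxph3* was 111 to 162 CPM in DL-Tshz2 against 51.6 to 102 CPM in DL-Foxp2. *Fezf2* was 123 to 256 CPM in DL-Tshz2 and 58.4 to 196 CPM in DL-Pou3f1. *Tbr1*, a T-box factor of early layer 6 neurons, was 246 to 326 CPM against 81.3 to 94.6 CPM. *Crym*, which encodes a thyroid hormone-binding protein, was 444 to 635 CPM against 195 to 272 CPM, but 390 to 738 CPM in DL-Pou3f1. *Zfpm2* was 48.8 to 68.3 CPM against 1.60 to 9.07 CPM. The members under a log2 ratio of 1 were *Ntsr1*, the neurotensin receptor whose Cre line labels corticothalamic neurons, and *Fezf2*, a layer 5 and 6 factor. *Ntsr1* was 5.14 to 8.75 CPM, from 34 UMIs, against 0.957 to 4.37 CPM, but 1.80 to 7.67 CPM in DL-Nnat. *Fezf2* was 36.0 to 84.6 CPM against 25.2 to 66.6 CPM.

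Of 6 layer 6b markers, 4 were at or below 3.89 CPM in every library. *Moxd1* had no UMI in DL-Foxp2 cells, and *Cplx3* and *Nxph4* stayed at or below 1.05 and 2.10 CPM in every library. *Ctgf* was 0.794 to 3.89 CPM. *Nr4a2*, a nuclear receptor of layer 6b that is also an activity-regulated gene, was 10.7 to 32.6 CPM against 15.9 to 45.3 CPM in the other excitatory neurons, and *Inpp4b*, a phosphoinositide phosphatase, was 4.72 to 9.53 CPM against 4.10 to 6.19 CPM. Of 19 markers of the other excitatory subtypes, 17 were lower in DL-Foxp2 in all 4 libraries, where the background was 24.9% of the 9537 genes with at least 100 UMIs in the other neurons. Of these, 11 were lower by a log2 ratio of at least 1, against a background of 2.83%. *Nnat*, an imprinted gene that marks DL-Nnat, was one of the exceptions and varied within DL-Foxp2, with 120 and 102 CPM in WT, against 66.7 and 2.57 CPM in *Setd1a*+/- libraries. *Reln* was the other exception, at 0.00 to 5.14 CPM. *Etv1*, the marker of DL-Etv1, was 30.8 to 66.7 CPM against 160 to 286 CPM.

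Promoters of *Rprm*, *Syt6* and *Hs3st4* are given because these genes mark the cells and because TBR1 is a T-box factor of layer 6. They are RefSeq sequences (GRCm38.p6) from 250 bases before to 50 bases after a transcription start, at chr2:54085503-54085802 on the minus strand, chr3:103574995-103575294 on the plus strand and chr7:123982578-123982877 on the plus strand. Capitals mark the T-box core AGGTGT, searched on both strands.
*Rprm*: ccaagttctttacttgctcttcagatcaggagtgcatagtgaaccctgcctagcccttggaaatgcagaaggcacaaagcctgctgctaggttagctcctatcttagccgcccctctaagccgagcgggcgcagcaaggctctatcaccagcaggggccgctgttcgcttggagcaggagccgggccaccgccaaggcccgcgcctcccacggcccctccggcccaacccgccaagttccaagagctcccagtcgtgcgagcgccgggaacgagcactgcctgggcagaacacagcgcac
*Syt6*: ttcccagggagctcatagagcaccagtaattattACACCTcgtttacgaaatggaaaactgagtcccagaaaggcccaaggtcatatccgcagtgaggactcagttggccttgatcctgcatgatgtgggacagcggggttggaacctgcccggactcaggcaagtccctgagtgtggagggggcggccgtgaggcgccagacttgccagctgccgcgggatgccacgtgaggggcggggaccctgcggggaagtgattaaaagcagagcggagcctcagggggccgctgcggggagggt
*Hs3st4*: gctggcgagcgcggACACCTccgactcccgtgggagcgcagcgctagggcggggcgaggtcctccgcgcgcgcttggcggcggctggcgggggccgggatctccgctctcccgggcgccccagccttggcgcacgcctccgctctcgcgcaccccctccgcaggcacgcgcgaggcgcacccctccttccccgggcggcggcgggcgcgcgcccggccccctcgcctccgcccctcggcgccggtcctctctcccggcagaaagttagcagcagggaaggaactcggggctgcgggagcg
The *Syt6* stretch, 1 of 3 listed for that gene, and the *Hs3st4* stretch each held 1 such core and the *Rprm* stretch held none. Of the 20 genes named next as highest in DL-Foxp2, 11 were matched to a promoter by symbol, and 4 of the 11 (*Syt6*, *Hs3st4*, *Nfia* and *Sebox*) held the core, against 15.7% of 27025 genes with a listed promoter and 1 of 8 matched genes among the 10 lowest (*Slc30a3*). The forkhead core TGTTTAC, searched on both strands as well, which can overlap the T-box core by its first letters, was in 0 of the 11, in 1 of the 8 lowest (*Cck*) and in 4.05% of all genes. A match is a run of letters and not a binding site.

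The 20 genes with the largest ratio of DL-Foxp2 to the other excitatory neurons, ranked by the lowest of the 4 libraries, were led by *Foxp2*, *Rprm* and *Syt6*, with *Hs3st4* in place 9. The log2 ratio of *Foxp2* was 3.74 to 5.26 over the libraries and that of *Rprm* 3.46 to 4.37. *Sla*, a Src-like adaptor that dampens receptor signaling, was 62.2 and 49.3 CPM in WT, against 66.7 and 48.8 CPM in *Setd1a*+/- libraries, while the other excitatory neurons had at most 0.948 CPM. *Ppp1r1b* encodes DARPP-32, the dopamine- and cAMP-regulated phosphatase inhibitor best known from striatal neurons, and was 132, 116, 93.7 and 193 CPM against 8.61 to 11.2 CPM. *Ramp3*, a receptor activity-modifying protein, was 263, 275, 301 and 244 CPM against 27.8 to 43.3 CPM.

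Transcription factors among the 20 were *Nfia*, *Zfpm2* and *Sebox* besides *Foxp2*. *Nfia*, a nuclear factor I gene, was 211 to 226 CPM against 19.1 to 35.8 CPM, with 109 CPM in the pooled DL-Pou3f1 cells. *Sebox*, a homeobox gene, was 49.6 to 66.8 CPM against 3.83 to 7.02 CPM, but reached 46.1 CPM in pooled DL-Tshz2 cells. *Sema5a*, a transmembrane semaphorin of axon guidance, was 134, 190, 113 and 257 CPM against 10.5 to 19.7 CPM. *Cyr61*, a secreted matrix protein induced by growth factors, was 39.9 and 80.2 CPM in WT libraries, with 145 and 74.5 CPM in *Setd1a*+/- libraries, against 3.28 to 9.25 CPM. The remaining genes were *Lsp1*, an actin-binding protein, *Arhgap25*, a GTPase-activating protein of Rac, *Krt80*, a keratin, *Ddah1*, which degrades methylated arginine, *Prss35*, *Myh3*, a myosin heavy chain, and *Fancd2* of the Fanconi anemia DNA repair pathway, with lowest log2 ratios from 2.11 to 2.79.

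*Ighm*, the constant region of the immunoglobulin M heavy chain (chr12:113418558-113422730, minus strand, annotated as an IG_C_gene in GENCODE vM21 on GRCm38), was in place 7. It was 212 and 229 CPM in WT libraries, with 185 and 565 CPM in *Setd1a*+/- libraries, against 8.49 to 29.9 CPM in the other excitatory neurons. At least 1 *Ighm* UMI was found in 49.6% and 44.2% of DL-Foxp2 cells in WT replicates 1 and 2, and in 35.1% and 62.3% in *Setd1a*+/- replicates 1 and 2, or in 329 of 743 cells in all. It was found in 91 of 2032 cells of the other 6 excitatory subtypes, 4.48%, with 3 of 304 in DL-Tshz2, and in 16 of 1694 oligodendrocytes, 0.945%. After thinning to 1500 UMIs the shares were 24.7% in DL-Foxp2, 2.01% in the other 6 subtypes together, 0.340% in DL-Tshz2 and 0.592% in oligodendrocytes, and droplets with at most 50 UMIs had 36.4 to 88.1 CPM. DL-Nnat cells had 51.3 CPM when pooled, and microglia, in which the gene was also found, had 297 to 405 CPM. The 6 microglia markers summed to 15.4 to 40.9 CPM in DL-Foxp2 and to 17.8 to 30.7 CPM in the other excitatory neurons, and the part of microglial RNA in the level of *Ighm* was not tested.

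The 10 genes lowest in DL-Foxp2 relative to the other excitatory neurons included vesicle and secreted proteins of excitatory neurons. *Synpr*, which encodes the vesicle protein synaptoporin, was 0.972 to 12.6 CPM against 222 to 420 CPM. *Slc30a3*, the vesicular zinc transporter, was 0.00 to 2.62 CPM against 108 to 146 CPM, and *Cck*, the neuropeptide cholecystokinin, was 41.1 to 111 CPM against 814 to 1960 CPM. *Nptxr*, a neuronal pentraxin receptor, was 6.35 to 20.4 CPM against 295 to 372 CPM. *Rorb*, the nuclear receptor of layer 4, was 0.00 to 6.82 CPM against 113 to 155 CPM. *C1ql3*, *Fam19a1*, *S100a6*, *Ntng1* and *Kcnab1* made up the rest, with log2 ratios of at most -3.28 in every library.

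**Figure D2:**
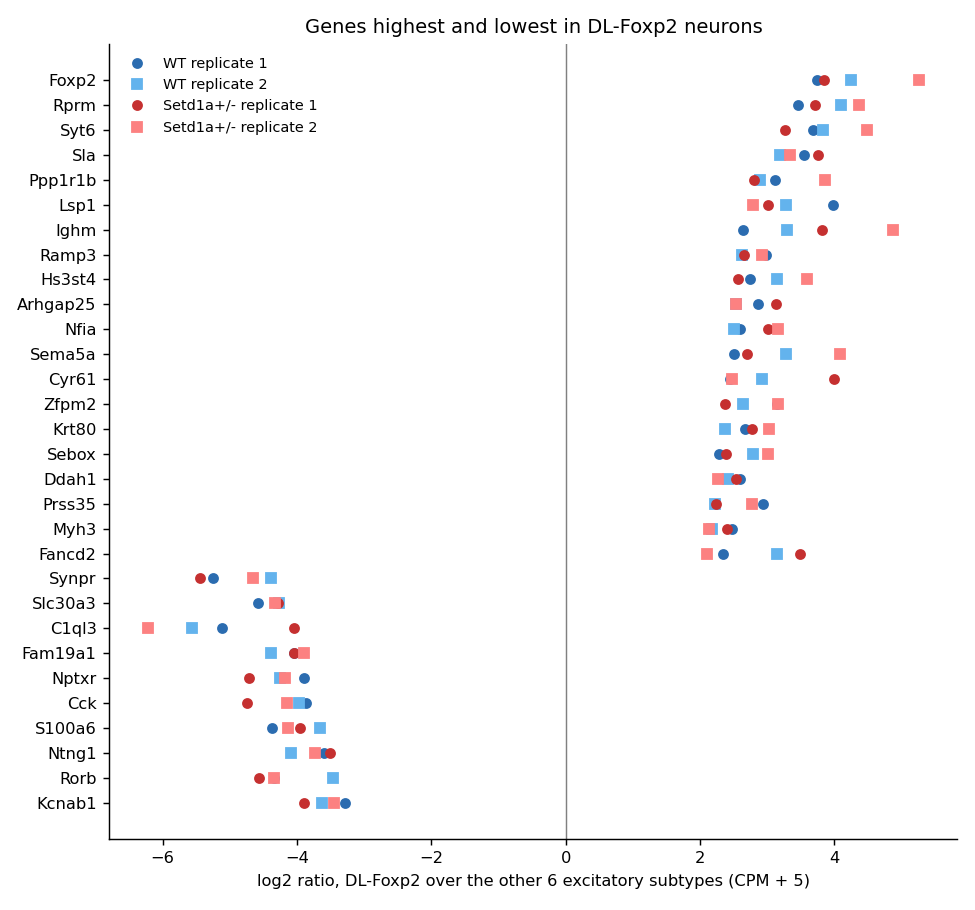
The log2 ratio of CPM in DL-Foxp2 neurons to CPM in the other 6 excitatory subtypes, with 5 CPM added to both, for the 20 genes highest and the 10 lowest in DL-Foxp2. Each point is 1 library (blue WT, red *Setd1a*+/-, circles replicate 1, squares replicate 2). The spread between libraries is widest for *Ighm* and *C1ql3*, and no point crosses 0.

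Genes of neuronal function were compared with the other excitatory neurons by list, beside the background of 20.9% higher and 24.9% lower in all 4 libraries, which covers genes with at least 100 UMIs while the lists hold lower genes too. Of 32 neuromodulator receptors, 13 were higher and 7 lower, the second count being near the background. *Adora1*, the inhibitory adenosine receptor, was 144 to 161 CPM against 66.6 to 80.2 CPM. *Htr1f*, a Gi-coupled serotonin receptor, had a log2 ratio of 1.58 to 1.88 to the other excitatory neurons. The nicotinic subunits *Chrna4* and *Chrna5* were 39.9 to 64.2 CPM against 9.95 to 14.9 CPM and 7.94 to 23.1 CPM against 0.569 to 2.55 CPM. *Hcrtr1*, an orexin receptor, was 5.14 to 14.2 CPM against 0.00 to 1.14 CPM. Lower were *Cnr1*, the cannabinoid receptor, at 7.70 to 25.7 CPM against 166 to 213 CPM, and the serotonin receptors *Htr2a* at 0.00 to 4.86 CPM against 46.6 to 57.1 CPM and *Htr2c* at 0.00 to 2.62 CPM against 24.6 to 50.3 CPM.

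Of 19 glutamate receptor genes, 7 were higher and 8 lower in all 4 libraries. *Grik3*, a kainate receptor subunit, was 72.3 to 106 CPM against 23.9 to 33.5 CPM, and *Gria2*, an AMPA receptor subunit, was 1080 to 1280 CPM against 891 to 1080 CPM. *Grik1*, another kainate subunit, had no UMI in DL-Foxp2 cells and was 5.74 to 14.9 CPM in the others, and *Grm5*, a group I metabotropic receptor, was 149 to 169 CPM against 311 to 330 CPM. Of 30 genes of synaptic vesicles and release, 9 were higher and 9 lower. *Snap25*, a SNARE protein, was 6390 to 7270 CPM against 4720 to 5570 CPM, *Cplx2*, a complexin, was 362 to 855 CPM against 120 to 288 CPM, and *Syn2*, a synapsin, was 205 to 268 CPM against 459 to 520 CPM. The next in level after these lists' highest members *Gria2* and *Snap25* were *Grin2b*, an NMDA receptor subunit, at 292 to 536 CPM against 332 to 555 CPM, and *Syt1*, the calcium sensor of release, at 1950 to 2870 CPM against 2020 to 2940 CPM.

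Of 34 axon guidance genes, 9 were higher, which is near the background of 20.9%, and 16 were lower, where the background was 24.9%. *Nrp1*, a semaphorin and VEGF coreceptor, was 81.3 to 118 CPM against 16.7 to 24.4 CPM, and *Plxna2*, a plexin, was 116 to 164 CPM against 53.1 to 62.3 CPM. The netrin receptor gene *Unc5d* was 0.00 to 2.92 CPM against 44.4 to 60.6 CPM, and *Efna5*, an ephrin, was 4.72 to 10.3 CPM against 38.6 to 63.8 CPM. After *Sema5a*, *Epha5*, an ephrin receptor, had the highest level of this list, at 149 to 181 CPM against 249 to 271 CPM. Of 99 genes whose symbol starts with Kcn, 26 had no UMI in DL-Foxp2, and 13 were higher and 19 lower, both counts under the background shares. The highest of these in level were *Kcnma1*, the BK channel subunit, at 293 to 355 CPM against 331 to 361 CPM, and *Kcnq1ot1*, a noncoding RNA and not a channel gene, at 123 to 267 CPM against 173 to 328 CPM. *Kcnip3*, a calcium-binding channel partner, was 77.0 to 129 CPM against 52.1 to 68.8 CPM, and *Kcnb2*, a delayed rectifier subunit, was 6.81 to 16.8 CPM against 76.1 to 95.7 CPM. Of the mitochondrial fission and fusion list 0 of 15 were higher and 4 lower. The sum of this list was 1240 to 1370 CPM, below the 1380 to 1460 CPM of the other neurons. *Mtfp1*, 1 of the 4 lower, was 69.3 to 104 CPM against 139 to 181 CPM. Of the H3K4 methyltransferase complexes 2 of 14 were higher and 2 lower, with sums of 504 to 526 CPM against 520 to 542 CPM. The members of highest level were, in the mitochondrial list, *Bnip3*, at 211 to 258 CPM against 191 to 249 CPM, and *Dnm1l*, the fission GTPase, at 120 to 282 CPM against 137 to 277 CPM, and for the complexes *Dpy30*, at 97.6 to 137 CPM against 113 to 153 CPM, and *Kmt2a*, at 48.5 to 96.3 CPM against 71.4 to 105 CPM.

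DL-Foxp2 cells carried few markers of other cell classes. The 6 interneuron markers summed to 7.78 to 22.5 CPM, the 10 oligodendrocyte lineage markers to 38.5 to 71.3 CPM, and the 8 endothelial and mural markers to 23.1 to 50.8 CPM. In droplets with at most 50 UMIs the oligodendrocyte sum was 1680 to 3080 CPM. The 5 astrocyte markers summed to 25.4 to 34.0 CPM, of which *Cldn10* made up 19.1 to 29.2 CPM, against 8.74 to 20.7 CPM in the other excitatory neurons. The highest interneuron marker was *Sst*, at 4.86 to 12.6 CPM, the highest microglia marker *C1qa*, at 3.97 to 12.8 CPM, and the highest endothelial and mural marker *Rgs5*, at 5.14 to 31.8 CPM. Next to these were *Gad2* (0.00 to 4.72 CPM), *C1qc* (2.57 to 7.94 CPM) and *Ly6c1* (2.92 to 10.3 CPM), and the astrocyte marker *Gja1* was 1.59 to 3.15 CPM and the oligodendrocyte marker *Opalin* 1.94 to 7.70 CPM. No barcode was shared between DL-Foxp2 cells of different libraries, and 6 of the 743 cells had a barcode that was also an annotated cell of another PFC library.

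Most single cells carried several of the 4 markers. Counted without regard to depth, 163 of 743 cells had all 4, 294 had 3, 194 had 2, 83 had 1 and 9 had none. In the other excitatory neurons 1 of 2032 cells had all 4, and in DL-Tshz2 20 of 304 had at least 3. *Rprm* was found in 96.5% of DL-Foxp2 cells, *Foxp2* in 69.2%, *Hs3st4* in 65.5% and *Syt6* in 38.6%, with a median of 6299 UMIs per cell. In oligodendrocytes, which should lack these genes and had a median of 2056 UMIs, the shares were 2.13%, 0.413%, 0.236% and 0.0590%. After each cell was thinned to 1500 UMIs, which left 728 DL-Foxp2 cells, the shares were 87.2%, 33.1%, 23.5% and 12.9%, and in oligodendrocytes they were at most 1.30%.

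Variation among cells was ranked by the lowest ratio of variance to mean over the 4 libraries. At 1500 UMIs per cell, counting error alone gives a variance near the mean, and the median gene of 1999 with at least 0.1 UMI per cell in every library had a lowest ratio of variance to mean of 0.914. *Malat1*, a nuclear noncoding RNA, had the highest ratio, 14.5 to 43.9 over the libraries. *Pcp4*, a calmodulin regulator of deep-layer neurons, had 3.12 to 3.52 and *Actb* 2.43 to 10.2. *Rprm*, the only one of the 4 markers among the first 15 genes in this order, had 1.83 to 2.19, and *Fos* had 1.58 to 3.91. Mitochondrial transcripts held 5 of the 15 places. These genes were named after their values were seen.

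The share of DL-Foxp2 cells among excitatory neurons was lower in 1 library and close in the other 3. It was 29.5% (95% Wilson interval 25.3 to 34.1%, 121 of 410 cells) and 29.5% (27.0 to 32.2%, 351 of 1189) in WT, and 29.2% (25.9 to 32.7%, 202 of 692) and 14.3% (11.4 to 17.7%, 69 of 484) in *Setd1a*+/- libraries. Intervals cover counting error only. The mean of the *Setd1a*+/- libraries differed from that of WT by -7.79 percentage points (two-sided exact permutation p = 0.33, the smallest that 2 against 2 libraries allow). Within pairs the difference was -0.321 points in replicate 1 and -15.3 points in replicate 2, so the mean rests on *Setd1a*+/- replicate 2 and was -0.326 points without it. As a share of all annotated PFC cells, DL-Foxp2 made up 4.61% and 13.1% in WT libraries, and 9.24% and 4.58% in *Setd1a*+/- libraries, so the genotypes overlapped and the difference was -1.95 points. Fewer cells in the tissue and fewer cells recovered after dissociation cannot be told apart.

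**Figure D3:**
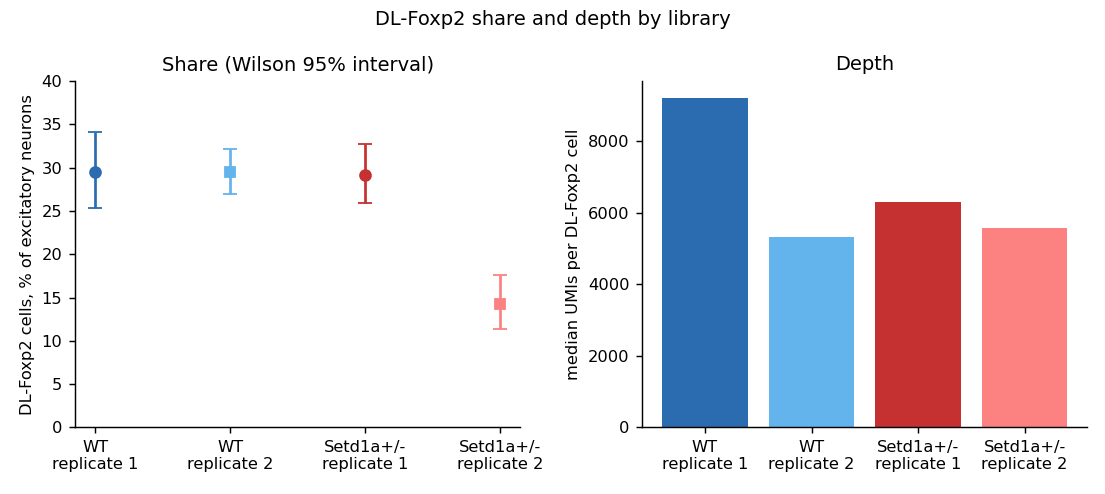
Left, DL-Foxp2 cells as a percentage of all excitatory neurons in each library, with 95% Wilson intervals. Right, the median UMIs per DL-Foxp2 cell in the same libraries, where the bar of WT replicate 1 is the tallest at 9223 and the other 3 lie between 5332 and 6312.

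Depth per cell overlapped between genotypes. The median cell carried 9223 and 5332 UMIs in the WT libraries, against 6312 and 5575 in the *Setd1a*+/- ones, a difference of -1330 between the means (exact permutation p = 1.0), which was 612 in the other direction without WT replicate 1. The summed UMIs were 1028301 and 1907412 for WT, against 1258952 and 389415 for *Setd1a*+/- libraries, so *Setd1a*+/- replicate 2 is the least precise. At 1500 UMIs the median cell had 994 and 962.5 genes in WT and 977 and 968 in *Setd1a*+/- libraries. Some genes differed by replicate and not by genotype, such as *Mt3*, a metallothionein, at 6.81 and 1000 CPM in WT replicates 1 and 2 and 0.00 and 906 CPM in *Setd1a*+/- replicates 1 and 2.

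The effect of *Setd1a* heterozygosity on these neurons was examined from UMIs summed per library, with *Setd1a* itself first. *Setd1a* (chr7:127776670-127800122) was 12.6 and 8.91 CPM in WT, against 6.35 and 15.4 CPM in *Setd1a*+/- DL-Foxp2 neurons, from 44 UMIs in all. The genotypes overlapped, and the log2 fold change of *Setd1a*+/- over WT was -0.19 ± 0.59 (SE; edgeR quasi-likelihood, adjusted p = 1.0). At 44 UMIs this gene cannot check the labels.

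No gene passed the threshold of an adjusted p under 0.05 and a fold change above 1.5 between genotypes. In edgeR's quasi-likelihood test 0 of 8854 genes were called (0.0%), 198 (2.24%) had an unadjusted p under 0.05, and DESeq2 called 0 with 31 at that p. With the replicate number as a block, 2 genes were called (0.0226%), *Hbb-bs* at a log2 fold change of 2.91 and *Gm42418* at -2.25, each with an adjusted p of 0.0433. The same test called 0 of 8714 genes in DL-Etv1 neurons (0.0%; 94, or 1.08%, with an unadjusted p under 0.05) and 0 of 8403 in SL-Cux2 neurons (0.0%; 73, or 0.869%), whose cells come from the same libraries. DESeq2 called 0 in each of these subtypes as well. The block gave 4 calls in DL-Etv1 and 3 in SL-Cux2, with *Gm42418* among the calls of all 3 subtypes. In edgeR's test with the block, 397 of 8854 genes had an unadjusted p under 0.05 in DL-Foxp2. The counts were closer to each other than without it, at 368 of 8714 in DL-Etv1 and 294 of 8403 in SL-Cux2. Without the filter on low counts there were 9 calls in DL-Foxp2 and 3 in each of the others. A fit without 1 library keeps 1 library of that genotype, so its spread comes from the other genotype alone. With *Setd1a*+/- replicate 1 left out, the log2 fold change of *Nnat* in DL-Foxp2 was -5.34, beside -1.41 ± 0.69 with all libraries. The *Setd1a*+/- library left had 2.57 CPM of *Nnat*. With *Setd1a*+/- replicate 2 left out, *Hbb-bs* was at 4.47 and *Tmem267* at 2.47.

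Both *Setd1a*+/- libraries lay above both WT libraries in CPM for 1270 genes (14.3%) and below for 1109 (12.5%), and the genes named here are those of smallest unadjusted p among them. *Gm42418* (chr17:39846958-39848788, a lincRNA that overlaps ribosomal RNA sequence) was 176 and 69.2 CPM in WT, against 24.6 and 30.8 CPM in *Setd1a*+/- libraries, a log2 fold change of -2.14 ± 0.47 that was -1.40 without WT replicate 1. The other excitatory neurons had 159 and 55.2 CPM in WT, against 14.6 and 36.0 CPM in *Setd1a*+/- libraries, and droplets with at most 50 UMIs had 5590, 682, 300.0 and 841 CPM in the same order, where the genotypes overlapped. Its log2 fold change was -1.72 ± 0.64 in DL-Etv1 and -2.25 ± 0.65 in SL-Cux2. The part of free RNA in its difference was not tested.

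Of the other lower genes, *Farsa*, a phenylalanyl-tRNA synthetase subunit, was 46.7 and 45.1 CPM in WT, against 17.5 and 20.5 CPM in *Setd1a*+/- libraries (log2 fold change -1.31 ± 0.31). *Syt10*, a synaptotagmin, was 50.6 and 29.9 CPM against 15.9 and 7.70 CPM (-1.55 ± 0.42), and its log2 fold change was -1.24 without WT replicate 1 and -2.30 without *Setd1a*+/- replicate 1. *Ppm1f*, a protein phosphatase, was 18.5 and 18.9 CPM against 5.56 and 5.14 CPM, *Sergef* was 36.0 and 36.2 CPM against 17.5 and 12.8 CPM, and *Ly6g6e*, a Ly6 family protein, was 27.2 and 16.3 CPM against 3.97 and 0.00 CPM. These 3 rest on 64 to 133 UMIs each over the 4 libraries.

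Higher in both *Setd1a*+/- libraries was *Atf4*, the transcription factor of the integrated stress response, at 67.1 and 69.2 CPM in WT, against 137 and 118 CPM in *Setd1a*+/- libraries (log2 fold change 0.92 ± 0.24). *Spock3*, a proteoglycan, was 24.3 and 20.4 CPM against 44.5 and 51.4 CPM (1.09 ± 0.29). *Marcksl1*, an actin-regulating protein, was 8.75 and 9.96 CPM against 27.8 and 25.7 CPM. *Zc3h7b*, a zinc finger protein, was 16.5 and 21.5 CPM against 44.5 and 43.7 CPM, and *Neu2*, a sialidase, was 6.81 and 6.29 CPM against 23.0 and 18.0 CPM. Over the 4 libraries *Spock3* had 140 UMIs, *Marcksl1* 73, *Zc3h7b* 131 and *Neu2* 55. *Tmem267* was 11.7 and 10.5 CPM against 63.5 and 20.5 CPM, and its value leans on *Setd1a*+/- replicate 1, as the log2 fold change was 0.91 to 2.47 when 1 library was left out. In the same libraries it was also positive in DL-Etv1 (1.01 ± 0.35) and SL-Cux2 (0.98 ± 0.51), beside 2.07 ± 0.48 in DL-Foxp2. Each of the 12 genes had an adjusted p of 1.0 in edgeR's test.

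**Figure D4:**
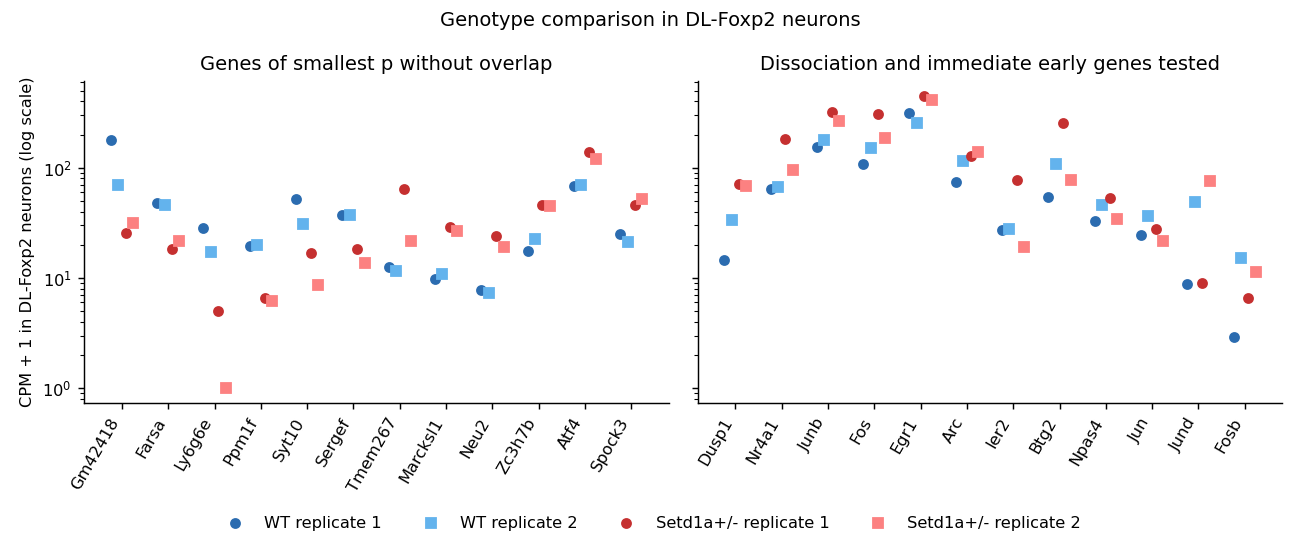
CPM plus 1 on a log axis in DL-Foxp2 neurons, by library (blue WT, red *Setd1a*+/-, circles replicate 1, squares replicate 2). Left, the 6 lower and 6 higher genes of smallest p whose genotypes do not overlap. Right, the 12 dissociation and immediate early genes with enough UMIs to test, of which the first 6 have both *Setd1a*+/- libraries above both WT libraries.

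Immediate early genes, which neurons switch on within minutes of activity and also during tissue dissociation, had mostly positive log2 fold changes that did not pass the test. Of 14 listed genes, 12 were tested, 10 had a positive log2 fold change, 6 did not overlap between genotypes and 5 had an unadjusted p under 0.05, with none called. Over all genes, 14.3% lay above without overlap and 2.24% had an unadjusted p under 0.05. The median log2 fold change was 0.73, beside 0.01 over all genes tested, and was 0.48 to 1.01 under the alternatives. It was 0.88 within replicate pair 1 and 0.3 within pair 2. *Junb* was 153 and 176 CPM in WT, against 318 and 267 CPM in *Setd1a*+/- libraries (0.83 ± 0.24). *Dusp1*, a MAP kinase phosphatase, was 13.6 and 32.5 CPM against 70.7 and 66.8 CPM (1.5 ± 0.43). Its log2 fold change was 1.03 to 2.38 with a library left out. *Dusp1* was called, at 1.65, with the replicate block and without the 3 hemoglobin-rich cells described further on (edgeR, adjusted p = 0.0444). Of those 3 cells 1 was a DL-Foxp2 cell, in *Setd1a*+/- replicate 1. *Fos* was 108 and 149 CPM against 309 and 187 CPM, *Nr4a1* was 63.2 and 66.1 CPM against 180 and 95 CPM, and *Egr1* was 314 and 252 CPM against 450 and 408 CPM. *Arc* was 73.9 and 113 CPM against 126 and 139 CPM. *Jun*, *Jund*, *Fosb*, *Ier2*, *Btg2* and *Npas4* overlapped between genotypes.

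Summed over the 14 genes, DL-Foxp2 had 881 and 1070 CPM in WT, against 1890 and 1400 CPM in *Setd1a*+/- libraries. The other excitatory neurons of the same libraries had 871 and 941 CPM in WT, against 1140 and 1050 CPM in *Setd1a*+/- libraries. In droplets with at most 50 UMIs the sum was 1900 and 1340 CPM in WT, against 2040 and 1150 CPM in *Setd1a*+/- libraries, which did not separate the genotypes. In DL-Etv1 8 of 13 tested members were higher with a median log2 fold change of 0.18, and in SL-Cux2 10 of 11 were with a median of 0.18, with 0 at an unadjusted p under 0.05 in each. In the test of the difference between DL-Foxp2 and the other excitatory neurons, 5 of 13 had an unadjusted p under 0.05, where 4.65% of all genes did, and none was called. The log2 difference was 0.63 ± 0.17 for *Junb* (edgeR, adjusted p = 0.182), 0.62 ± 0.17 for *Fos* (adjusted p = 0.258) and 0.93 ± 0.28 for *Dusp1* (adjusted p = 0.402). *Junb* was called, at 0.76, when DL-Foxp2 was set against DL-Etv1 and SL-Cux2 alone, and at 0.84 without *Setd1a*+/- replicate 2, where *Fos* was called too, at 0.82 (edgeR, adjusted p = 0.0147). The part of dissociation in this list was not tested.

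The identity markers were as often higher as lower. Of 16 layer 6 corticothalamic markers tested, 8 were higher and 8 lower, with a median log2 fold change of 0.00 and none with an unadjusted p under 0.05. *Foxp2* had a log2 fold change of 0.25 ± 0.26, *Rprm* 0.09 ± 0.22, *Hs3st4* 0.01 ± 0.23 and *Syt6* -0.20 ± 0.50, the last running from -1.08 to 0.47 with a library left out. *Tle4* was lower in both *Setd1a*+/- libraries than in both WT libraries (-0.50 ± 0.24), and *Sulf1*, a heparan sulfatase, was 78.8 and 48.2 CPM in WT, against 38.1 and 36.0 CPM in *Setd1a*+/- libraries (-0.74 ± 0.32). *Tbr1* lay above, at 258 and 246 CPM against 260 and 326 CPM (0.22 ± 0.24).

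Lists of chromatin and neuronal function had medians between -0.06 and 0.13 in the reported test, and under the alternatives all but that of the neuromodulator receptors (-0.23 to -0.01) crossed 0. The 14 members of H3K4 methyltransferase complexes had a median log2 fold change of 0.13 (-0.02 to 0.15 under the alternatives), with 2 above and 3 below without overlap (14.3% and 12.5% over all genes), and the smallest p was that of *Rbbp5*, a core subunit, at 11.7 and 14.7 CPM in WT, against 22.2 and 41.1 CPM in *Setd1a*+/- libraries. Of 28 vesicle and release genes 22 were lower, with a median of -0.06, and in the same libraries 5 of 25 of these genes were higher in DL-Etv1 and 5 of 26 in SL-Cux2. That median ran from -0.53 (without *Setd1a*+/- replicate 2) to 0.14 under the alternatives, and was -0.41 within replicate pair 1 and 0.11 within pair 2. Of 16 glutamate receptors 9 were lower, with a median of -0.05 (-0.31 to 0.02 under the alternatives) and *Gria4*, an AMPA receptor subunit, at the smallest p (log2 fold change -0.56 ± 0.36). Of 13 neuromodulator receptors 7 were lower, with a median of -0.03, and the smallest p was that of *Htr1a*, a serotonin receptor (0.63 ± 0.42). Of 21 axon guidance genes 12 were higher, with a median of 0.11 (-0.16 to 0.26), and *Nrp2*, a semaphorin coreceptor, had the smallest p (-0.91 ± 0.46). Of 41 genes whose symbol starts with Kcn, among them the noncoding RNA *Kcnq1ot1*, 22 were higher, with a median of 0.04 (-0.09 to 0.18). *Kcnj6*, a G protein-gated channel, had the smallest p, at 64.2 and 45.6 CPM in WT, against 29.4 and 28.2 CPM in *Setd1a*+/- libraries. Of 13 mitochondrial fission and fusion genes 7 were higher, with a median of 0.07 (-0.12 to 0.08), and *March5*, a mitochondrial ubiquitin ligase, was 21.4 and 18.9 CPM against 50.8 and 28.2 CPM. Of the 13, 3 had an unadjusted p under 0.05 in edgeR's test (2.24% over all genes), and 3 lay above and 2 below without overlap. *Mff* was 100 and 114 CPM in WT, against 190 and 159 CPM in *Setd1a*+/- libraries. *Dnm1l* was 282 and 213 CPM against 120 and 182 CPM. No list held a called gene, and each member named here had an adjusted p of 1.0 in edgeR's test.

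Markers of other classes were mostly too low to test. Of these lists, 0 of 6 interneuron markers and 1 each of the astrocyte, oligodendrocyte, microglia and endothelial markers passed the filter on low counts.

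The study names 4 genes among those dysregulated in DL-Foxp2 cells of these libraries and 13 genes from nuclei sorted by a *Foxp2* driver in other mice. The first list was chosen on these samples and is not independent evidence of its direction. *Taok2*, a kinase, was 20.4 and 19.4 CPM in WT, against 3.97 and 10.3 CPM in *Setd1a*+/- libraries (log2 fold change -1.77 ± 0.54), and its log2 fold change was -0.92 without *Setd1a*+/- replicate 1 and -2.35 without *Setd1a*+/- replicate 2. *Taok2* rests on 67 UMIs over the 4 libraries. In the same libraries its log2 fold change was -0.28 ± 0.53 in DL-Etv1 and -0.79 ± 0.47 in SL-Cux2. *Kit*, a receptor tyrosine kinase, was 38.9 and 53.5 CPM against 26.2 and 10.3 CPM (-1.18 ± 0.42), and was at -2.16 without *Setd1a*+/- replicate 1. *Arl2*, a small GTPase, at 86.6 and 164 CPM against 57.2 and 126 CPM, and *Ppdpf*, at 115 and 180 CPM against 81.0 and 116 CPM, overlapped between genotypes, and the values of each were higher in replicate 2 than in replicate 1 of both genotypes. All 4 log2 fold changes were below 0, and none was called.

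Of the 13 genes from sorted nuclei, 9 were tested, 4 had a positive and 5 a negative log2 fold change, with a median of -0.03, and the genotypes overlapped for each of the 9. The text of the study gives no direction for most of these genes. The split of signs and the median therefore cannot show whether the directions match. *Slc17a7*, the vesicular glutamate transporter, was 298 and 490 CPM in WT, against 131 and 652 CPM in *Setd1a*+/- libraries, and *Tspan7*, a tetraspanin, was 1200 and 1010 CPM against 1470 and 953 CPM. *Bsg*, a cell surface glycoprotein, was 115 and 512 CPM against 89.0 and 503 CPM and followed the replicate. The study describes *Rnf112* and *Syngr1* as down-regulated in the sorted nuclei. In DL-Foxp2 cells *Rnf112* was 86.6 and 72.9 CPM in WT, against 90.6 and 77.0 CPM in *Setd1a*+/- libraries (log2 fold change 0.1 ± 0.25). *Syngr1* was 105 and 238 CPM against 54.8 and 264 CPM (-0.2 ± 0.71), and was higher in replicate 2 of both genotypes. *Syngr1*, *Nptx2*, *Efnb3*, *Icam5*, *Rnf112* and *Aplp1* had log2 fold changes with unadjusted p of 0.454 or more in edgeR's test. *Bcan*, *Igf2*, *Amigo2* and *Pdlim5* had 12 UMIs or fewer in DL-Foxp2 and were not tested.

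Whether the genotype effect in DL-Foxp2 differed from that in the other excitatory neurons was tested in 1 fit over 8 sums, 2 per library, with a term for each library. Of 11146 genes, 7 were called at an adjusted p under 0.05 (0.0628%), and 518 (4.65%) had an unadjusted p under 0.05. They were 4 hemoglobin genes, *Ighm*, *Atp6v1g2* and *Cryab*. Without WT replicate 1 none was called at that threshold, and without *Setd1a*+/- replicate 2 there were 12 calls.

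The 4 hemoglobin calls rested on single cells. *Hbb-bs* was 46.7 and 13.6 CPM in WT, against 639 and 20.5 CPM in *Setd1a*+/- DL-Foxp2 neurons, and 318, 14.2, 171 and 17.9 CPM in the other excitatory neurons in the same order. In *Setd1a*+/- replicate 1 a single DL-Foxp2 cell held 1136 of the 1191 hemoglobin UMIs (95.4%), and the next cell held 3. In the other excitatory neurons a single cell held 1002 of 1202 in WT replicate 1 and 585 of 758 in *Setd1a*+/- replicate 1. Hemoglobin is made by red cells, and *Hbb-bs* was 400 to 5310 CPM in droplets with at most 50 UMIs. Without the 3 excitatory cells with over 100 hemoglobin UMIs, an alternative chosen after seeing the data, 3 genes were called, and the log2 difference of *Hbb-bs* went from 3.87 ± 0.23 to 0.00 (adjusted p = 1.0).

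The 3 genes that remained were *Ighm*, *Atp6v1g2* and *Cryab*. *Ighm* had a log2 difference of 1.64 ± 0.25 (edgeR, adjusted p = 1.55e-07), from the DL-Foxp2 levels given before and 29.9 and 19.0 CPM in WT, against 8.49 and 14.4 CPM in *Setd1a*+/- libraries of the other excitatory neurons. The log2 ratio between the 2 groups of neurons was 2.64 and 3.29 in WT, against 3.82 and 4.88 in *Setd1a*+/- libraries. Libraries of the same genotype thus lay further apart than that SE, which edgeR moderates over all genes. DL-Nnat held 172 of the 256 *Ighm* UMIs of the other excitatory neurons. Its level was 79.9 and 52.3 CPM in WT, against 22.6 and 46.8 CPM in *Setd1a*+/- libraries. Within DL-Foxp2 the genotypes overlapped, as the 565 CPM of *Setd1a*+/- replicate 2 stood above the other 3 libraries, and without that library the difference was 1.14 (edgeR, adjusted p = 0.33), while without WT replicate 1 it was 1.33 (adjusted p = 0.0959).

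*Cryab*, a small heat shock protein, was 156 and 197 CPM in WT, against 230 and 254 CPM in *Setd1a*+/- DL-Foxp2 neurons, and 83.0 and 69.2 CPM and 52.1 and 54.6 CPM in the other excitatory neurons. The log2 difference was 0.86 ± 0.19 (edgeR, adjusted p = 0.00733), and the libraries of each genotype did not overlap in either group of neurons. The level of *Cryab* was 4620 to 5090 CPM in oligodendrocytes, and the oligodendrocyte markers in DL-Foxp2 summed to 61.3 and 71.3 CPM in WT, against 60.4 and 38.5 CPM in *Setd1a*+/- libraries. The part of oligodendrocyte RNA in its difference was not tested. *Atp6v1g2*, a neuronal subunit of the vacuolar proton pump, was 1600 and 1850 CPM in WT, against 1340 and 1170 CPM in *Setd1a*+/- DL-Foxp2 neurons, and 1200, 1340, 1430 and 1260 CPM in the other excitatory neurons in the same order. Its log2 difference was -0.60 ± 0.12 (edgeR, adjusted p = 0.000925). The call of *Cryab* was lost without WT replicate 1 (edgeR, adjusted p = 0.943), *Setd1a*+/- replicate 1 (0.179) or *Setd1a*+/- replicate 2 (0.0729), and that of *Atp6v1g2* without WT replicate 1 (0.348) or WT replicate 2 (1.0). The log2 difference was then 0.64, 0.90 and 0.84 for *Cryab*, and -0.60 and -0.55 for *Atp6v1g2*. With the replicate number as a block the call of *Atp6v1g2* was lost at a log2 difference of -0.60 (adjusted p = 0.207), and with the block and without the 3 hemoglobin-rich cells *Ighm* alone was called. Against DL-Etv1 and SL-Cux2 alone 6 genes were called, namely *Hbb-bs*, *Hba-a1*, *Hba-a2*, *Nnat*, *Atp6v1g2* and *Junb*, and neither *Ighm* nor *Cryab* was among them.

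**Figure D5:**
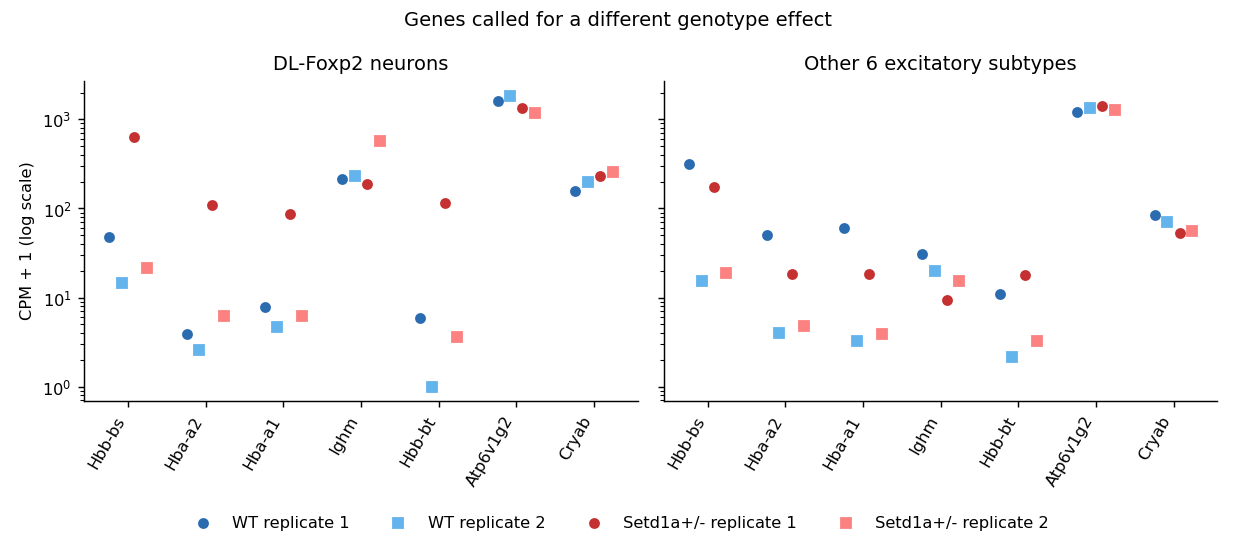
CPM plus 1 on a log axis of the 7 genes whose genotype effect was called as different, in DL-Foxp2 neurons (left) and in the other 6 excitatory subtypes (right), by library (blue WT, red *Setd1a*+/-, circles replicate 1, squares replicate 2). On the left the hemoglobin genes stand out in *Setd1a*+/- replicate 1 and *Ighm* in *Setd1a*+/- replicate 2. On the right *Hbb-bs*, *Hba-a1* and *Hba-a2* are highest in WT replicate 1, and *Hbb-bt* in *Setd1a*+/- replicate 1.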

How the data were processed

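The deposited matrices hold raw UMI counts for every gene and droplet barcode, which the authors made with Cell Ranger 3.0.2 on mm10. The authors' tables of annotated cells hold other values (library, cluster name and UMI totals per cell) for cells they kept at 800 or more genes and at most 10% mitochondrial UMIs, clustered after integration in Seurat 3.2.0. Gene-by-cell tables and the other tissue and assays were not used here. Doublets were not called here.

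The DL-Foxp2 cells were looked up by barcode, and their UMIs were summed per library. The sums were tested with edgeR 4.0.16 in R 4.3.3 (quasi-likelihood test), after genes under filterByExpr's minimum of 10 counts were dropped and TMM factors were computed, and p-values were adjusted over all genes by Benjamini-Hochberg; the script was checked on data made with known answers. DESeq2 1.42.0, other size factors, no filter, the replicate number as a block, leaving out each library, leaving out the 5% of cells with the most UMIs and, for the difference of effects, DL-Etv1 and SL-Cux2 as the only other neurons were alternatives. Where a library is left out, its genotype is represented by 1 library. Calls gained or lost in such fits then rest on the spread within the other genotype. The study tested single cells with DEsingle, which was not run. Other steps used Python 3.11.15 with numpy 2.4.6, scipy 1.17.1 and pandas 2.3.3.

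Named genes followed 5 rules: the 20 highest and 10 lowest genes against the other excitatory neurons, the 6 lower and 6 higher genes of smallest p whose genotypes did not overlap, called genes, the 2 members of each list highest in level with the member of smallest p and all genes of the study's lists, and *Setd1a* and *Mt3*. Other list members and the genes ranked by variation were chosen after their values were seen, and 1 gene that the rule names is not reported here. The members and lists were chosen with earlier results of these data known. The methods put 1 library of each genotype in each replicate, and the deviations of same-numbered libraries from their genotype means correlated at 0.428 over 8854 genes. P-values rest on the spread between 2 libraries of pooled mice per genotype, which edgeR moderates over all genes. In the test of the difference of effects, the SE of a gene can therefore be smaller than its own spread between libraries. DL-Foxp2 sums held between 389415 and 1907412 UMIs per library. GENCODE vM21 (GRCm38) gave positions.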

Additional observations from a re-analysis of the deposited data

Results flagged for a closer look

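For 7 genes the genotype effect differed between DL-Foxp2 and the other excitatory neurons in a test of the difference itself (edgeR, adjusted p under 0.05). The log2 difference was 3.87 for *Hbb-bs*, 5.62 for *Hba-a2*, 4.32 for *Hba-a1* and 3.90 for *Hbb-bt*, and without the 3 excitatory cells that held over 100 hemoglobin UMIs the first 3 had an adjusted p of 1.0 and *Hbb-bt* had too few UMIs to test. It was 1.64 for *Ighm*, -0.60 for *Atp6v1g2* and 0.86 for *Cryab*, which remained called without those cells at adjusted p of 5.12e-07, 0.00277 and 0.0197. Each of these 3 calls was lost when 1 library was left out, with adjusted p of 0.0959 and 0.33 for *Ighm* (without WT replicate 1 or *Setd1a*+/- replicate 2), 0.348 and 1.0 for *Atp6v1g2* (WT replicate 1 or 2), and 0.943, 0.179 and 0.0729 for *Cryab* (WT replicate 1, *Setd1a*+/- replicate 1 or 2). With the replicate block and without the hemoglobin-rich cells the adjusted p was 0.341 for *Atp6v1g2* and 0.0612 for *Cryab*.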

How the results depend on the processing

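Called genes in DL-Foxp2 numbered 0 in the reported test, 9 without a filter on low counts, 2 with the replicate block, 2 with the block and without the 3 hemoglobin-rich cells (*Gm42418* and *Dusp1*), and 0 to 5 when 1 library was left out. In DL-Etv1 they numbered 0, then 3 without the filter, 4 with the replicate block and 0 to 7 with a library left out, and in SL-Cux2 0, then 3, 3 and 0 to 191, the last without *Setd1a*+/- replicate 2. Genes with a different effect numbered 7, then 0 (without WT replicate 1) to 12 (without *Setd1a*+/- replicate 2) with a library left out, 6 with the replicate block, 3 without the hemoglobin-rich cells and 1 with both. Of the 3 hemoglobin-rich cells 1 was a DL-Foxp2 cell, so the fits within DL-Foxp2 lost that cell only. The difference in median UMIs per cell was -3280 to 612 with a library left out, above 0 without WT replicate 1 alone. Of 17 named genes, 195 of 204 alternative values kept the direction and the side of the threshold. These include the 6 lower and 6 higher genes, which were chosen because the genotypes did not overlap, and none of the 17 was called. Most of that count was therefore fixed by the choice of genes and does not measure robustness. With a library left out, *Setd1a* ran from -0.76 to 0.57, above 0 without WT replicate 1 or *Setd1a*+/- replicate 1, and *Arl2* from -1.21 to 0.08, above 0 without WT replicate 2. Calls were gained by *Gm42418* (-2.19 without the filter, -2.25 with the block), *Ly6g6e* (-2.85 without the filter) and *Tmem267* (2.02 without the filter, 2.47 without *Setd1a*+/- replicate 2). Of 204 alternative medians of 17 lists, 40 moved by more than the spread between replicate pairs. The cause was not tested. Depth limits *Setd1a*, with 44 UMIs, and the 69 cells of *Setd1a*+/- replicate 2.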
